A study of Mus musculus with 4 samples.

Results

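Input DNA is the part of sheared genomic DNA set aside before immunoprecipitation, so its signal on an array follows how much of each sequence the amplified sample held and not its methylation. The input of KO and WT mouse leukaemic cells was compared on 4 Agilent promoter and CpG island arrays, 1 array for each of 4 groups: KO cells with decitabine (DAC), KO cells without it, WT cells with DAC and WT cells without it. DAC, a cytidine analogue that traps DNA methyltransferases, was added at 20 nM, once in 24 h over 3 days; harvest of treated and untreated cells was at 72 h. Cells of all 4 groups grew in serum with interleukin-6, interleukin-3 and stem cell factor. The DNA of every group was amplified over the whole genome with a GenomePlex kit before Cy5 labelling. The labels conflict on the knockout: the source names read Mll5KOHM and the series title names MLL5, whereas the genotype field of both KO samples reads HOXA9 KO. They give no replicate of any group, no strain, sex, clone or number of animals. Of 520554 probes on the array, 327891 (63.0%) had an input signal well above background on all 4 arrays and were kept, 327862 of them nuclear and 29 on chrM, the mitochondrial chromosome. Each value below is the log2 input signal less the array's median over nuclear probes, called the level, and each difference is the mean of the 2 KO arrays minus the mean of the 2 WT arrays.

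A cell holds many copies of the circular mitochondrial genome and many copies of the ribosomal RNA repeat, but only a pair of copies of most autosomal genes, so input DNA on an array carries a record of copy number. Nuclear chromosomes also hold inserted copies of mitochondrial sequence. The signal also depends on base composition, because amplification, labelling and hybridisation favour some sequences over others.

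The KO arrays were dimmer. The input of 69.3% and 74.7% of spots was well above background on the KO arrays with and without DAC, against 80.4% and 83.9% on the WT arrays with and without DAC. Their median background-subtracted signals were 30.9 and 47.6 on KO arrays, against 50.1 and 72.5 on WT arrays. The nuclear levels of any 2 arrays correlated across probes with r between 0.87 and 0.95, a description over probes that share fragments and base composition. Each array lay on its own slide, and effects of slide and of group cannot be told apart. Input DNA does not show the cell type, so the leukaemic label was not checked.

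Probes on chrM and at a chromosome 1 copy of it carried large differences together, and 3 of each are shown for the highest, the median and the lowest KO minus WT difference of their set. In the chrM sequences (mm9, 5′ to 3′) capitals mark CpG.
chrM:2303-2362, plus strand, difference 2.55: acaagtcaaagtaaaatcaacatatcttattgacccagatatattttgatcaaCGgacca
chrM:9797-9856, plus strand, difference 2.16: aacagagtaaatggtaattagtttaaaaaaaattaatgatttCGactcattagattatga
chrM:1428-1487, plus strand, difference 0.52: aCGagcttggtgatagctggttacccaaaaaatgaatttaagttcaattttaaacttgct
In the chromosome 1 sequences capitals mark the stretch found without mismatch in chrM, which is the whole probe.
chr1:24620110-24620169, minus strand, difference 2.46: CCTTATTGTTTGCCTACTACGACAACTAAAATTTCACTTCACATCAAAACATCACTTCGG
chr1:24622855-24622907, minus strand, difference 2.01: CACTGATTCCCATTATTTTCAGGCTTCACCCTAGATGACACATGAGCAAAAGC
chr1:24621484-24621543, minus strand, difference 1.53: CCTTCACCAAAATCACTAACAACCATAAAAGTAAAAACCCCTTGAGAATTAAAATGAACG

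Mitochondrial DNA had a higher input level on both KO arrays. The median level of the 29 chrM probes was 5.10 and 5.72 on the KO arrays with and without DAC, against 3.62 and 3.39 on the WT arrays with and without DAC. Both KO arrays lay above both WT arrays, and the groups did not overlap. The KO mean was 5.41 ± 0.44 and the WT mean 3.51 ± 0.16 (SD, n = 2 each), a difference of 1.91, or 3.75-fold. The exact two-sided permutation test over the 4 arrays gave p = 0.333, the smallest that 2 arrays against 2 can give. The difference was 1.48 with DAC and 2.33 without DAC.

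Across single chrM probes, 28 of 29 had both KO arrays above both WT arrays, beside 25.3% of nuclear probes. In the limma fit over all 327891 kept probes, in which 4.11% were called at an adjusted p under 0.05, 2.71% higher and 1.39% lower in KO, 28 of the 29 chrM probes were called higher and none lower. Over the 5 probes in mt-Nd2, a subunit of respiratory complex I, the mean level was 6.32 and 6.72 on KO arrays with and without DAC, against 4.38 and 4.43 on WT arrays. Those KO levels lay above those of WT by 2.11. Over the 7 probes in mt-Co1, the catalytic subunit of cytochrome c oxidase, the mean levels were 5.37 and 5.78 on KO arrays, against 3.52 and 3.31 on WT arrays, a difference of 2.16. The 6 probes in mt-Nd1, another complex I subunit, differed by 2.01.

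The 3 chrM probes at the lowest positions, between 1428 and 1925 in mt-Rnr2, the gene of the large mitochondrial ribosomal RNA, differed less than the others. Their differences were 0.52, 1.29 and 1.18, whereas the other 26 probes lay between 1.75 and 2.55. With DAC these 3 probes differed by a median of 0.65, and the WT array with DAC was high there, with a median level of 4.24 against 3.29 on the WT array without DAC. The probe of chrM:1428-1487, whose sequence is given above, was the only chrM probe not called, with an adjusted p of 0.30 by limma, and the only one on which the groups overlapped. The 4 further mt-Rnr2 probes, from 2061 on, differed by 2.05 to 2.55.

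**Figure D1:**
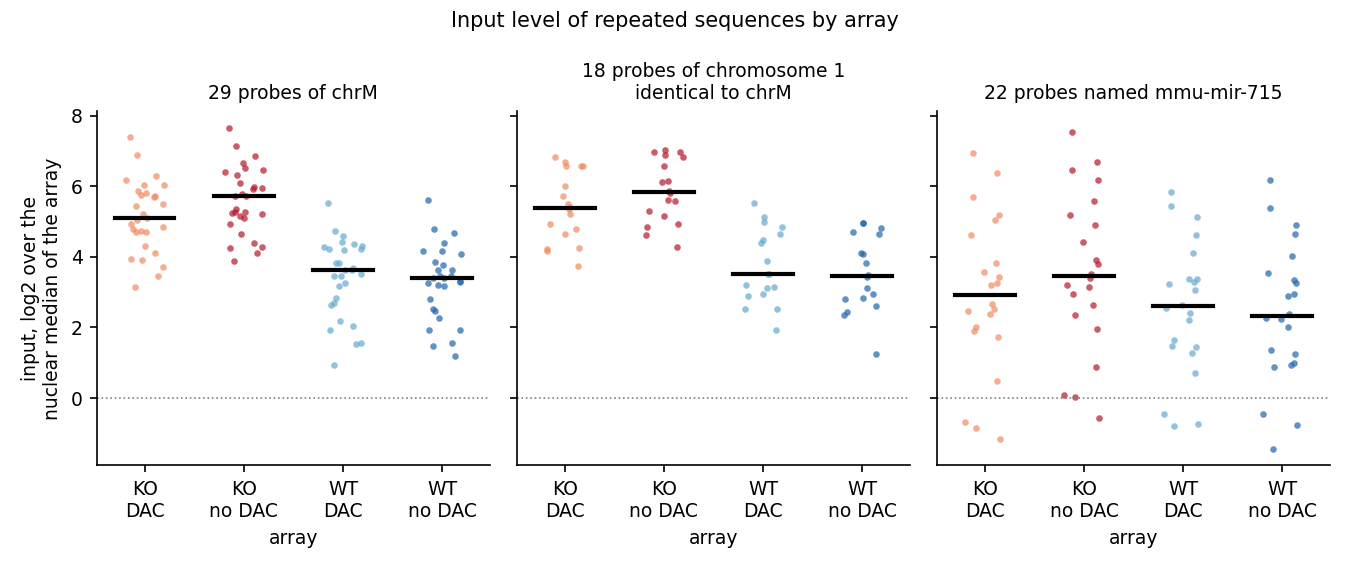
Each point is 1 probe, its y value the log2 input over the nuclear median of that array, for KO arrays left of WT arrays and DAC left of no DAC, and black bars are medians. On chrM the medians are 5.10 and 5.72 in KO and 3.62 and 3.39 in WT, the chromosome 1 probes repeat that pattern, and the mmu-mir-715 probes differ less.

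A stretch of chromosome 1 gave values like those of mitochondrial DNA. All 18 array probes between 24618917 and 24622907 were kept and are identical over their whole length to chrM, where they fall in genes from mt-Co1 to mt-Nd4. No other nuclear probe shared over 20 bases with chrM. Their median level was 5.39 and 5.84 on the KO arrays with and without DAC, against 3.52 and 3.46 on the WT arrays. Each of the 18 had both KO arrays above both WT arrays, beside 25.3% of nuclear probes, and was called higher, beside 2.71% of kept probes. Their differences ran from 1.53 to 2.46, with a median of 2.01. The 73 other kept probes within 500 kb had a median difference of 0.21 at a median GC of 38.3%. All nuclear probes with a GC over 35% and up to 40% had a median difference of 0.22. The annotation places 7 of the 18 probes in exons, of genes it names Gm10222 and Gm10925, and 11 between genes. Since these sequences also occur in chrM, signal from the 2 places cannot be told apart.

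**Figure D2:**
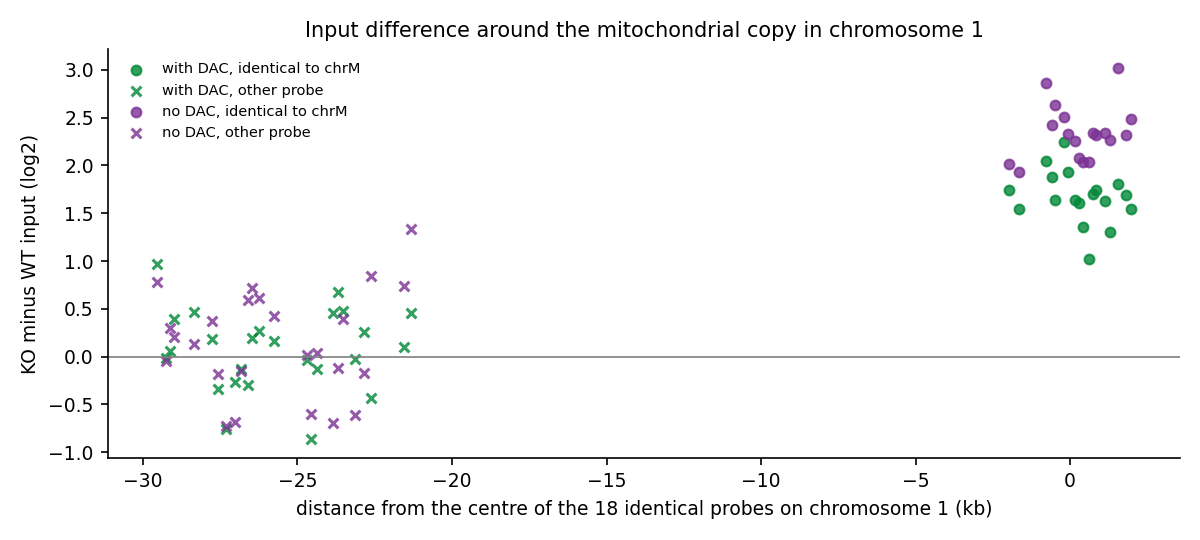
Each point is a kept probe of chromosome 1, its x value the distance in kb from the centre of the 18 probes identical to chrM and its y value the KO minus WT input on the log2 scale, with DAC in green and no DAC in purple. The 18 identical probes (circles) lie between 1.03 and 3.02, and the neighbours plotted (crosses) between -0.86 and 1.34.

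Other nuclear probes of like brightness and base composition differed less. The 1949 nuclear probes that matched chrM in both the range of mean level and the range of GC had a median difference of 0.06, with -0.16 with DAC and 0.24 without DAC. The 16067 nuclear probes as bright as chrM probes had a median difference of -0.33.

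The ribosomal RNA locus was the nuclear window with the largest positive difference. On chromosome 17, 23 probes from 39980411 to 39985774 are named for mmu-mir-715, which lies in an assembled copy of the ribosomal RNA repeat, and 22 were kept. The annotation places 3 of them in exons of a pseudogene, AY036118, and 19 between genes. Of these, 3 are shown for the highest, the median and the lowest difference, with CpG in capitals.
chr17:39980837-39980882, plus strand, difference 1.90: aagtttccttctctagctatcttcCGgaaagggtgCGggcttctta
chr17:39981004-39981048, plus strand, difference 0.70: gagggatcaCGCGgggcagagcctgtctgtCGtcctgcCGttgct
chr17:39985730-39985774, plus strand, difference -0.18: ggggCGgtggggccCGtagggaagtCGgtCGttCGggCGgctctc
The mean level over the 22 probes was 2.94 and 3.56 on the KO arrays with and without DAC, against 2.54 and 2.40 on the WT arrays, a difference of 0.78. It was 0.40 with DAC and 1.16 without DAC. Both KO arrays lay above both WT arrays on 16 of the 22 probes, beside 25.3% of all nuclear probes. Of the 22, 8 were called higher, beside 2.71% of all kept probes. The 8 probes with GC under 60% had a median difference of 1.36, and the 14 probes at or over 60% one of 0.61. Once each array's median level at each probe GC was subtracted, a correction called the GC step below, the difference was 1.17.

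The difference over the rest of the genome followed the base composition of the probe. Levels were higher at higher GC on each of the 4 arrays, with slopes of 0.33 and 0.46 log2 units for each 10 GC points on the KO arrays with and without DAC, against 0.65 and 0.63 on the WT arrays. At a GC over 30% and up to 35% the median level was -0.30 and -0.41 on KO arrays, against -0.64 and -0.65 on WT arrays, a median difference of 0.30. At a GC over 70% the levels were 0.54 and 0.92 on KO arrays, against 1.35 and 1.24 on WT arrays, a median difference of -0.54. Relative to WT, the KO arrays were higher at AT-rich and lower at GC-rich probes. The median difference was 0.04 at a GC over 40% and up to 45%, and -0.13 at a GC over 45% and up to 50%. The slope of the difference was -0.25 for each 10 GC points, with -0.32 with DAC and -0.18 without DAC, and r over 327862 nuclear probes was -0.51, a description over probes that share arrays and fragments.

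**Figure D3:**
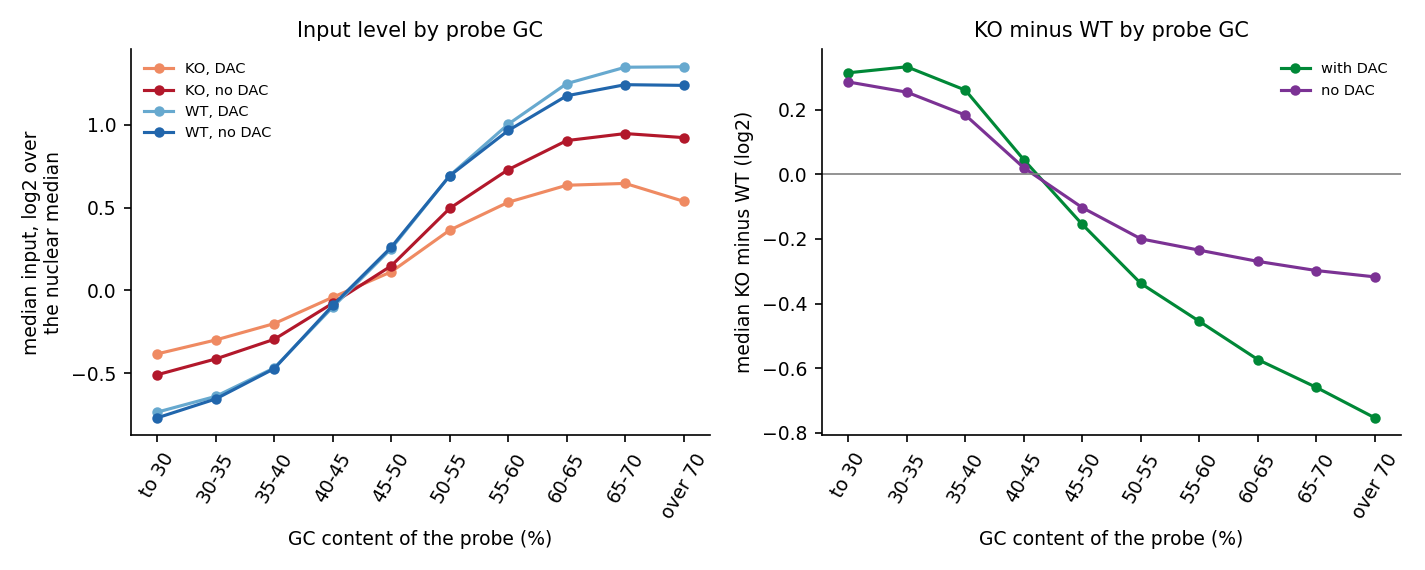
The x axis is probe GC in percent; the left y axis is the median log2 input over the nuclear median for each array and the right y axis the median KO minus WT difference. KO curves are flatter than WT curves, and the difference falls to -0.75 with DAC and -0.32 without DAC at a GC over 70%.

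The difference also varied with the sequence around a probe. Among probes with GC up to 35%, the median difference was 0.44 where CpG was densest in the surrounding 2000 bp and 0.31 where it was sparsest, with all probes ranked in 6 classes by that density. In that GC range the second sparsest class had 0.25, so the trend was not steady. Among probes with GC over 60% it was -0.49 in the densest class (17140 probes) and -0.32 in the sparsest (64 probes). Probe GC was not held fixed within that range. At a GC over 45% and up to 50% it was -0.07 in the densest class and -0.14 in the sparsest. The difference thus lay further from 0 in the densest class at both ends of GC, but not in this middle range. By brightness, in 10 classes of nuclear probes, the median difference was -0.31 in the brightest, whose median GC was 53.3%, and 0.36 in the dimmest, whose median GC was 38.3%. A dim probe was kept only if its KO signals also passed background, and fewer spots passed on the KO arrays. With no filter on background the median difference over genes was -0.04, against 0.01 with it. The parts that this filter and the dimmer KO arrays had in these trends were not tested.

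No autosome differed in mean input by more than 0.06. For the 19 autosomes the mean difference lay between -0.05, on chromosome 15, and 0.06, on chromosome 13, and none was called. Chromosomes with a higher mean probe GC had lower differences, with r = -0.95 over the 19 autosomes given as a description. With the GC step the 19 lay between 0.00 and 0.03. The X chromosome differed by 0.07, with mean levels of 0.13 and 0.10 on KO arrays with and without DAC, against 0.06 and 0.03 on WT arrays. At matched GC its median level was within 0.06 of that of the autosomes on every array.

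The Y chromosome was the only one called, at -0.17 with a limma adjusted p of 0.0017, and 4.76% of the 21 chromosomes were called. Limma pooled the error fully here and gave every chromosome the same SE of 0.035. Yet Y had 44 kept probes and every other chromosome at least 8002, so that p does not measure the spread of Y itself. The mean level of Y over the kept probes was 0.64 and 0.73 on the KO arrays with and without DAC, against 0.95 and 0.76 on the WT arrays. The difference was -0.31 with DAC and -0.03 without DAC. Leaving out the KO array with DAC gave -0.13, leaving out the WT array with DAC -0.08 and leaving out the WT array without DAC -0.27. Those fits with 1 array left out had no term for treatment. The call ended under 6 of 13 alternatives, with adjusted p from 0.12 to 0.56, although the difference was -0.16 with quantile normalization, -0.24 with the GC step and -0.25 with that step and intensity loess. It was -0.07 with no filter on background and -0.10 with brighter probes. Few Y probes gave signal. Of 204, 22.5% and 26.5% were well above background on the KO arrays with and without DAC, against 36.8% and 41.7% on the WT arrays, while no other chromosome had under 65.5% on any array. For Ddx3y, a Y-linked RNA helicase, 4 and 4 of 20 probes were well above background on KO arrays, against 11 and 13 on WT arrays. For Sry, the testis-determining gene, the counts were 7 and 10 of 34 on KO arrays, against 14 and 16 on WT arrays. For Ube1y1, a ubiquitin-activating enzyme, they were 9 and 10 of 24 on KO arrays, against 11 and 10 on WT arrays. Over all spots 69.3% and 74.7% passed on the dimmer KO arrays with and without DAC, against 80.4% and 83.9% on the WT arrays. What lay behind the Y counts was not tested.

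**Figure D4:**
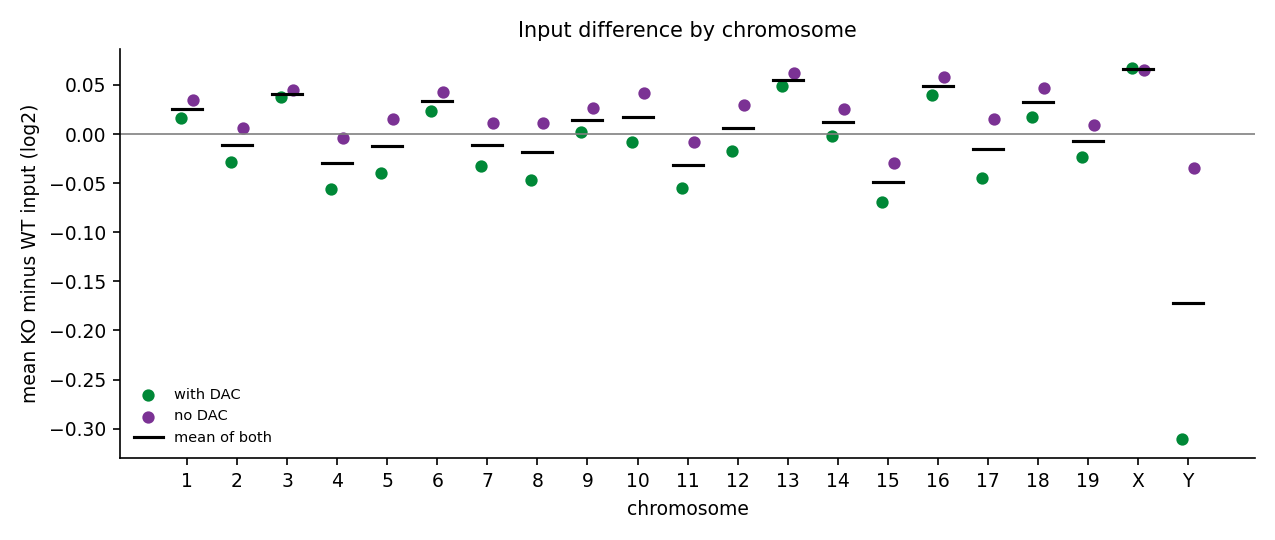
For each chromosome on the x axis, points give the mean KO minus WT input on the log2 scale with DAC (green) and without DAC (purple), and bars their mean. Autosomes and X lie between -0.07 and 0.07 in both conditions, and Y lies at -0.31 with DAC and -0.03 without DAC.

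Windows of 1 Mb were called often. Of 2137 windows with at least 10 kept probes, 764 were called (35.8%), 585 higher (27.4%) and 179 lower (8.38%) in KO. The median probe GC was 41.3% in windows called higher, 48.0% in those called lower and 44.3% over all windows. With the GC step limma called none, although 455 had an unadjusted p under 0.05, and the lowest adjusted p was 0.090. Without 1 array the count was 206 without KO with DAC, 206 without WT with DAC, 49 without WT without DAC and 580 without KO without DAC. With normexp background correction 833 windows were called, but 354 higher and 479 lower.

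After the ribosomal window, the called windows with the largest positive differences mostly held few probes. The window of Pik3c3, a class III phosphatidylinositol 3-kinase, on chromosome 18 (30000001 to 31000000, 12 probes) had levels of -0.03 and 0.17 on KO arrays with and without DAC, against -0.54 and -0.40 on WT arrays, a difference of 0.54 (SE 0.04). The window of Tmem161b on chromosome 13 (84000001 to 85000000, 22 probes) also differed by 0.54. A window of chromosome 8 (38000001 to 39000000) differed by 0.50, and the chromosome 1 window of the mitochondrial copy (24000001 to 25000000, 125 probes) by 0.49, or 0.23 without its 18 identical probes. Windows of Prss7, encoding enteropeptidase, Slitrk6 and Gpm6a, both neuronal membrane proteins, and 2 others on chromosomes 4 and 7 differed by 0.43 to 0.45. All 10 kept a positive difference after the GC step, from 0.19 to 1.17.

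The 10 called windows with the largest negative differences were GC-rich. Their mean probe GC lay between 53.2% and 61.3%. The window of Tshz3, a zinc finger regulator, on chromosome 7 (37000001 to 38000000, 17 probes) had levels of 0.59 and 0.85 on KO arrays with and without DAC, against 1.26 and 1.19 on WT arrays, a difference of -0.50 (SE 0.05). The window of Ptchd1 on chromosome X also differed by -0.50. Those at Auts2 on chromosome 5, Ajap1, Fat4, Lphn2, a window of chromosome 8 and Bcor, differed by -0.49 to -0.32. Both Auts2 windows, from 133000001 and from 132000001, were called before the GC step, and differed by -0.26 and 0.00 with it.

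**Figure D5:**
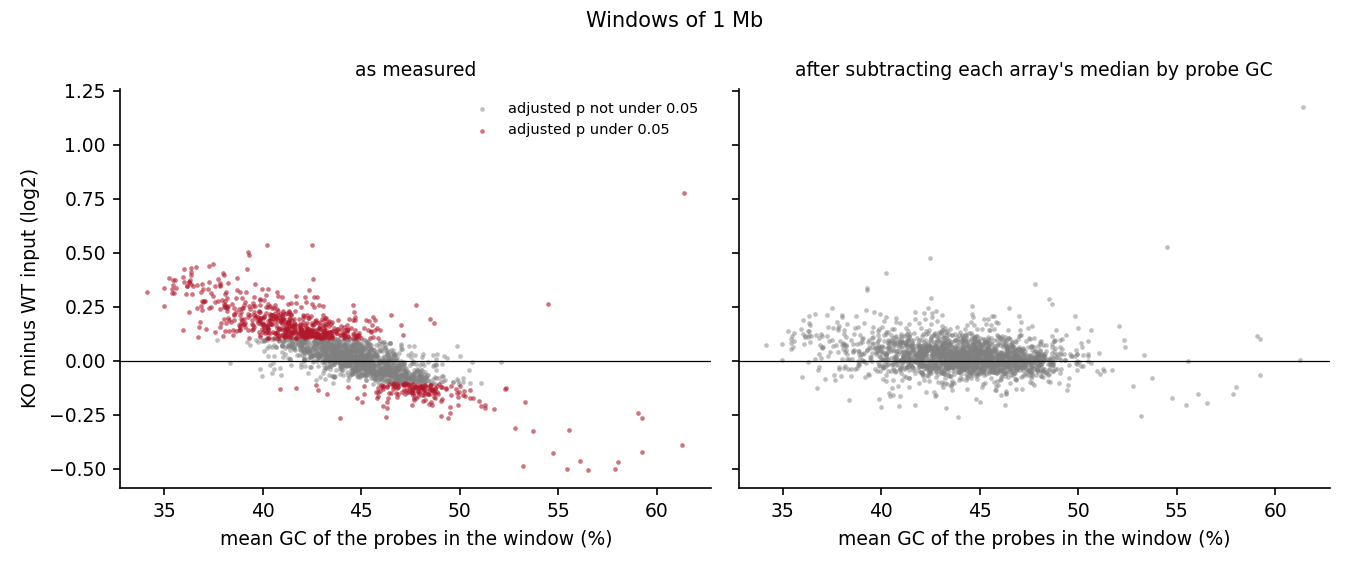
Each point is a 1 Mb window, its x value the mean GC of its probes in percent and its y value the KO minus WT input on the log2 scale, as measured (left) and after the GC step (right); 764 windows are red on the left. Differences fall with GC on the left, and on the right the ribosomal window is the highest at 1.17.

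Runs of neighbouring probes were short. A gain run was at least 8 kept probes in succession with both KO arrays above both WT arrays, and a loss run the reverse; 25.3% and 29% of nuclear probes met those conditions singly. There were 118 gain runs and 249 loss runs, and neighbouring probes share amplified fragments. The median run had a mean GC of 37.8% among gains and 57.0% among losses. Just inside the minimum of 8 probes stood 66 gain and 118 loss runs of 8, and just outside it 172 gain and 230 loss runs of 7. The middle probes of the 3 longest gain and the 3 longest loss runs are shown to set their base composition side by side; capitals mark the stretch shared with chrM in the first and CpG in the rest.
Gain, chr1:24621302-24621361, minus strand: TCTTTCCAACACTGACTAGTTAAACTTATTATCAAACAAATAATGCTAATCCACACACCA
Gain, chr13:27873519-27873578, plus strand: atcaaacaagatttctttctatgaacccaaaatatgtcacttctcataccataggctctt
Gain, chr13:27809482-27809541, plus strand: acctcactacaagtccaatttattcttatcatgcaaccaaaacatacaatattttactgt
Loss, chr1:138131091-138131135, plus strand: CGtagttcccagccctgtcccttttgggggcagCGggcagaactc
Loss, chr11:115126698-115126742, plus strand: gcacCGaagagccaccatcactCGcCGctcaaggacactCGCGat
Loss, chr9:85737079-85737123, plus strand: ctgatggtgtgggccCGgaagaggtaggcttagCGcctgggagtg

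The longest gain run, of 20 probes, held the 18 probes identical to chrM. The second, of 16 probes on chromosome 13 (27871872 to 27888304), lay at Prl7c1 and Prl2a1, and the third, of 14 probes (27806451 to 27811084), at Prl7d1, all genes of the placental prolactin family. At Prl7c1 and Prl2a1 the mean levels were 0.55 and 0.40 on KO arrays with and without DAC, against -0.20 and -0.31 on WT arrays. At Prl7d1 the mean difference was 0.68. Runs of 14 probes at Taf7, a subunit of the transcription factor TFIID, and Sfi1, a centrin-binding protein, differed by 0.66 and 0.62. The levels at Sfi1 were 3.28 and 3.18 on KO arrays, against 2.61 and 2.60 on WT arrays, far above the nuclear median on all 4 arrays.

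The 5 longest loss runs held 17 to 15 probes, at Kif21b, a kinesin, and its neighbours on chromosome 1, Grin2c, an NMDA receptor subunit, on chromosome 11, Tpbg, the trophoblast glycoprotein, on chromosome 9, Pbx4 and Cilp2 on chromosome 8, and Foxl2, a forkhead factor of the ovary, on chromosome 9. Their mean differences lay between -0.64 and -0.56 and their mean GC between 56.1% and 60.9%. At Foxl2 the levels were 0.31 and 0.62 on KO arrays with and without DAC, against 1.05 and 1.16 on WT arrays. Of its 15 probes 13 were exonic.

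Of 18333 genes with at least 3 kept probes, 3704 were called (20.2%), 2171 higher (11.8%) and 1533 lower (8.36%). With the GC step 1212 were called (6.61%), 975 higher (5.32%) and 237 lower (1.29%), and 882 genes were called both ways with the same sign. Without the WT array without DAC the count was 485, without the WT array with DAC 1022 and without the KO array with DAC 1853. Fits without 1 array lacked the term for treatment here too. With normexp background correction 1745 genes were higher and 3052 lower. A difference over 1 was reached by 9 genes: 4 on chrM, 2 at the chromosome 1 copy, and Hist1h3d, Hist2h2bb and BC059852. Only Aff2 was below -1, at -1.02. Hist1h3d, a histone H3 gene with 3 kept probes, had levels of 0.56 and 0.70 on KO arrays with and without DAC, against -1.13 and -1.07 on WT arrays. It differed by 1.73, and by 1.51 after the GC step.

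Among genes with at least 5 kept probes, those with the largest positive differences were 2 transcript names of chrM and 8 nuclear names. Hist2h2bb, a histone H2B gene on chromosome 3 (96073087 to 96073665, 5 probes, 1 of them exonic), had levels of -0.24 and 0.32 on KO arrays, against -1.16 and -1.09 on WT arrays, a difference of 1.17 (SE 0.11, limma adjusted p = 0.0033). Zfp75, a zinc finger gene on chromosome 9, had levels of 0.16 and 0.25 on KO arrays, against -0.79 and -0.59 on WT arrays, a difference of 0.89 over 15 probes. Uqcrq, a subunit of respiratory complex III on chromosome 11 (53244141 to 53245447, 10 probes, 4 exonic and 5 intronic), had levels of 0.84 and 1.21 on KO arrays, against 0.19 and 0.33 on WT arrays. Its difference of 0.76 became 0.96 after the GC step.

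The other nuclear names were Olfr582, an olfactory receptor, at 0.86, Rpp38, a subunit of ribonuclease P, at 0.85, D10Ertd641e at 0.81, mmu-mir-715 at 0.78 and Anapc4, a subunit of the anaphase-promoting complex, at 0.76. All 10 were still called after the GC step.

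The 10 genes with the largest negative differences lay between -0.89 and -0.68, with a mean probe GC between 53.9% and 64.6%. Of these, 6 carry transcript accessions as names. The other 4 were EG381582 at -0.83, Ankrd44, an ankyrin repeat protein, at -0.74, Hoxb8, a homeobox gene, at -0.73 and Zfp518, a zinc finger gene, at -0.70. Hoxb8 on chromosome 11 (96144310 to 96145793, 6 probes, 5 exonic) had levels of 0.30 and 0.59 on KO arrays, against 1.13 and 1.22 on WT arrays, and its difference after the GC step was -0.38. All 10 were still called after that step, with differences between -0.53 and -0.32.

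Input at the genes named by the labels was measured in part. Hoxa9, a homeobox gene of myeloid progenitors, has 57 array probes within 2000 bp (chromosome 6, 52173099 to 52181088, minus strand), of which 39 were kept. Their median level was 0.09 and 0.36 on KO arrays with and without DAC, against 0.50 and 0.40 on WT arrays, with a median difference of -0.20. The 28 probes the array names Hoxa9 differed by -0.16 (SE 0.08, limma adjusted p = 0.16). Mll5, a SET domain gene on chromosome 5 (22940259 to 23010053, plus strand), has 17 probes within 2000 bp, and the 13 kept lay at its start, between 22938731 and 22940709. Their median level was 0.41 and 0.88 on KO arrays, against 0.95 and 0.90 on WT arrays, with a median difference of -0.38 at a median GC of 55.6%. All nuclear probes with a GC over 55% and up to 60% had a median difference of -0.35. At the 13 probes it was -0.54 with DAC and -0.12 without DAC. Of the 13, 1 was called higher and none lower, beside 2.71% and 1.39% of all kept probes. No kept probe lies in the rest of the gene, so a deletion there was not measured. Within 5 Mb of Mll5, 931 kept probes had a median difference of -0.05. Of 60 genes there, 4 were called higher and 10 lower, beside 11.8% and 8.36% of all genes, and after the GC step 3 were higher, beside 5.32% of all genes, and none lower. Before the step the share called lower lay above that of all genes and the share called higher below it. After the step the shares were near those over all genes.

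Genes of the lists lost and gained in myeloid leukaemia lay between -0.40 and 0.27. Of 26 genes lost or mutated in that disease 2 were called higher and 4 lower, near the 20.2% of all genes called, and 20 were not called, with a median of -0.05 beside 0.01 over all genes. Gata2, a stem cell transcription factor, was lowest at -0.40, Rb1, a cell cycle inhibitor, was the median member at -0.04, and Npm1, a nucleolar chaperone, was highest at 0.27. None was called with the GC step. Of 21 genes gained or activated none was called, against 20.2% of all genes; they lay between -0.19 at Kit, a growth factor receptor, and 0.25 at Mcl1, a survival factor, with Bmi1, a Polycomb subunit, the median member at -0.04. With the GC step 1 of the 21 was called higher.

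Of 39 Hox genes 7 were called lower, beside 8.36% of all genes, and none higher, beside 11.8%, with a median of -0.12. Hoxa4 was highest at 0.09 and Hoxd3 the median member at -0.12. After the GC step 1 of the 39, Hoxb8, was called, where 1.29% of all genes were lower. Of 24 housekeeping genes 6 were called higher, beside 11.8% of all genes, and none lower, with a median of 0.10, and 4 were higher after the GC step, beside 5.32% of all genes. Snrpd3, a splicing factor subunit, had levels of 0.39 and 0.57 on KO arrays, against -0.10 and 0.05 on WT arrays, a difference of 0.50. Hprt1 of purine salvage was the median member at 0.15 and Ywhaz, a 14-3-3 protein, the lowest at -0.25.

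Of 19 genes known to differ in copy number or sequence between mouse strains, 6 were called higher, beside 11.8% of all genes, and none lower, with a median of 0.21, and 1 was called after the GC step, near the 6.61% of all genes called then. The member called after the step was Naip1, a sensor of bacterial secretion systems, at 0.55 over 8 probes. Its levels were 0.67 and 0.34 on KO arrays with and without DAC, against 0.06 and -0.15 on WT arrays. Fgfbp3 was the lowest at -0.12. Of 6 Y-linked genes with enough kept probes 1 was called, near the 20.2% of all genes: Zfy1, a zinc finger gene, at -0.38; Uty differed by -0.06 and Ube1y1 by 0.06.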

How the data were processed

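Input DNA was hybridised in Cy5 against MeDIP DNA in Cy3 on 4 arrays. The deposited scanner files hold spot intensity from Agilent Feature Extraction 10.5.1.1 with probes placed on mm9, per the file headers, and only the red processed intensity was used; it is background-subtracted, detrended and scaled by 1 factor an array, which centring cancels. Here log2 intensity was averaged over spots of a probe and centred on each array's nuclear median. Windows, genes (at least 3 kept probes, names of the array design) and chromosomes are means over probes. limma 3.58.1 (R 4.3.3) fitted treatment and genotype on 4 arrays, with 1 residual degree of freedom and Benjamini-Hochberg adjustment over all features. The error of that fit is how far the KO minus WT difference departs between DAC and no DAC. With 1 array a group, array spread and a KO to WT difference in DAC response cannot be told apart in it. Nothing says that arrays came from separate cultures, so p-values measure only this spread between these arrays. Limma pooled that spread over features, so an SE is largely not the feature's own. The 12-probe Pik3c3 window and the 125-probe chromosome 1 window both had an SE of 0.04. The GC step subtracts each array's median at each whole percent of probe GC.

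Named were every chromosome, the 10 called windows and the 10 called genes (at least 5 kept probes) furthest each way without overlap of groups, the 5 longest runs each way, 3 members a list, Hoxa9 and the Mll5 region. Of these, 1 window and 1 list member are not reported here. The members and lists were chosen with earlier results of these data known. Genes were annotated from the GENCODE annotation of the same build. All 327820 kept probes on chromosomes of that assembly matched it at their position. On simulated data with 200 of 18333 genes changed, all genes changed by 1 or 2 log2 units were recovered, with 11 false calls. Of 327891 probes, 26.8% of those changed by 1 log2 unit were recovered, with 6 false calls. Every simulated gene had the same SD of 0.08, whatever its number of probes, and no KO minus WT trend with GC. Recovery in the real arrays was therefore not measured. The alternatives were another background correction, quantile and loess normalization, the GC step, filters on dim, saturated or non-uniform probes, other window sizes and summaries, genotype alone, and each array left out. The MeDIP channel and the value table of the series were not used.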

Additional observations from a re-analysis of the deposited data

Results flagged for a closer look

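With DAC against without, mitochondrial input moved oppositely in KO and WT cells: the chrM median changed by -0.62 in KO cells, against 0.23 in WT cells, with 1 array a side, and the difference between them was not tested. The mean KO minus WT difference had opposite signs in the 2 treatments on 9 chromosomes, untested as well. With DAC and then without DAC it was -0.0286 and 0.0061 on chromosome 2, -0.0395 and 0.0152 on 5, -0.0326 and 0.011 on 7, and -0.0471 and 0.0109 on 8. It was -0.0077 and 0.0421 on chromosome 10, -0.0176 and 0.0294 on 12, -0.0019 and 0.0258 on 14, -0.0444 and 0.015 on 17, and -0.0229 and 0.0093 on 19. Of the genes in the lists, only the 3 examples of each list were looked at for this, and others also had opposite signs; among the examples it was seen, untested, for Bmi1 (-0.1002 with DAC, 0.0122 without), Uty (-0.29, 0.16), Ube1y1 (-0.05, 0.17) and Fgfbp3 (-0.35, 0.11). None of these chromosomes and genes was called in the fit over both treatments.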

How the results depend on the processing

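No paired analysis was possible because the labels carry no replicate numbers. The fit reported compares KO with WT arrays within each treatment, and genotype alone is the fit without the term for treatment. Fits with 1 array left out also lacked that term, so their changes cannot be put down to the missing array alone. With 1 array left out, the chrM difference of 1.91 ranged from 1.60 to 2.22, the slope of the KO minus WT input difference on probe GC, -0.25 as reported, from -0.31 to -0.19, and the calls from 49 to 580 windows, 485 to 4350 genes, 1953 to 16817 probes and 0 to 2 chromosomes; the arm with a lone array is assumed to vary like the other. The chrM difference was 1.56 with the GC step and intensity loess together. The slope was 0.0079 with the GC step and -0.0032 with that step and intensity loess together, as those steps construct. Called windows, 764 as reported, numbered 58 with quantile normalization, 291 with intensity loess, 369 with no filter on background, 278 with brighter probes, 506 with genotype alone and 207 with medians over probes. Limma called 0 with the GC step and with that step and loess, where 455 and 420 had an unadjusted p under 0.05. With windows of other sizes, 1890 of 5577 smaller windows and 194 of 533 windows of 5 Mb were called. Called genes, 3704 as reported, numbered 2321 with quantile normalization, 2022 with brighter probes, 2026 with medians, 1212 with the GC step and 959 with the GC step and loess. Called probes, 13467 as reported, numbered 37142 with normexp, 7055 with brighter probes, 7594 with genotype alone, 4766 with the GC step, 5919 with that step and loess, and 0 with no filter, where 78621 had an unadjusted p under 0.05 in limma. Chromosomes called, 1 as reported, numbered 4 with normexp and 8 with loess. Limma called 0 with quantile normalization, no filter, brighter probes, the GC step and both steps, with 6, 5, 1, 5 and 3 at an unadjusted p under 0.05. The Auts2 window from 132000001 was -0.39 as reported and 0.0033 with the GC step. The share of gene calls that were higher, 58.6% as reported, was 36.4% with normexp and with no filter and 80.4% with the GC step. Both steps together and the omission of multicopy probes were chosen after seeing the data. The causes of these changes were not tested.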

Other observations

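Gene families grouped by the letters before the first digit of the symbol, a rule chosen after the values were seen, differed in how they stood after the GC step. Of 72 families with at least 20 tested genes, histone genes (Hist) had the highest median, 0.22 after the step and 0.38 before it. Of their 49 members 33 were called higher and none lower, beside 11.8% and 8.36% of all genes. After the step 17 were higher and none lower, beside 5.32% and 1.29% of all genes. Hist1h4a, a histone H4 gene on chromosome 13, had levels of 0.13 and 0.38 on KO arrays with and without DAC, against -0.58 and -0.32 on WT arrays.

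Genes of the large ribosomal subunit (Rpl) came second, with a median of 0.12 after the step. Of 47 such genes 7 were higher and none lower then, beside 5.32% and 1.29% of all genes. Those of the small subunit (Rps) had a median of 0.10, with 8 of 42 higher and none lower, beside the same shares. RNA polymerase subunits (Polr) had a median of 0.11 with 1 of 20 called higher, near the 5.32% of all genes. Matrix metalloproteinases (Mmp) had the lowest median, -0.07, with none of 23 called after the step, beside 6.61% of all genes. Olfactory receptors (Olfr) had a median of 0.27 before the step, with 407 of 790 called higher and none lower, beside 11.8% and 8.36% of all genes, and of 0.06 after it, with 52 higher and 6 lower, near the 5.32% and 1.29% of all genes; their median probe GC was 37.0%.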
